A study of Mus musculus with 9 samples.

Results

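The genes that make, break down and sense the cyclic nucleotides cAMP and cGMP were examined in single neurons of the mouse central amygdala. They were taken as every gene row whose symbol begins with Adcy and a digit (adenylyl cyclases), Gucy (guanylyl cyclases), Pde with digits and a letter (phosphodiesterases), Prkaca, Prkacb or Prkar (subunits of protein kinase A), or Rapgef and a digit (exchange factors of the Rap proteins). The rule found 52 of 22601 gene rows. They comprise 9 adenylyl cyclases, 7 guanylyl cyclases, 23 phosphodiesterases, 6 kinase subunits, 6 exchange factors and Pde4dip, which matched by its letters and encodes a protein that binds a phosphodiesterase. All cells came from 9 samples of 1 group, wild-type B6 mice with no treatment named, whose central amygdala was cut out of acute slices and dissociated, with cells pooled across slices. The sources used here name no age or sex. The cell identifiers carry an animal number from 1 to 3 and a field that reads like a date (121718, 121818 or 121918), with 1 sample for each combination. Nothing in the labels says whether an animal number stands for the same mouse under each date field. The p-values below therefore measure how much the differences between classes varied over these samples. Of 829 cells, the 810 that had at least 1 of Gad1, Gad2 and Slc32a1 positive, and both Slc17a7 and Slc17a6 not, were kept as inhibitory neurons. A cell counted as positive for a gene at 1 or more of its counts per 10000.

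Adenylyl cyclases make cAMP when stimulated by G proteins, and soluble guanylyl cyclase makes cGMP when it binds nitric oxide. Phosphodiesterases hydrolyse either or both nucleotides and differ in what controls them: the Pde1 enzymes are switched on by calcium and calmodulin, Pde2a by cGMP, and Pde4, Pde7 and Pde8 enzymes act on cAMP while Pde9a acts on cGMP. cAMP frees the catalytic subunits of protein kinase A from their regulatory subunits, and it also opens the exchange factors Epac1 (Rapgef3) and Epac2 (Rapgef4), which load the small GTPase Rap. Neurons marked by Prkcd or by Sst are the best known inhibitory classes of the central amygdala, and neuropeptide receptors that act through cAMP, such as the CGRP receptor encoded with Calcrl, are found there.

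The samples held 85 to 95 cells each and between 8522750 and 22730327 gene counts in all. The median inhibitory neuron had 126576 counts. The neurons were split by 6 markers: Prkcd (343 positive cells), Sst (148), Calcrl (30), Isl1 (76), Nr2f2 (116) and Foxp1 (167). The classes overlapped, since 193 neurons carried at least 2 of the markers and 143 carried none, so comparisons by different markers share cells and are not independent of each other. Of the 3 genes that the rule required at least 1 of, Gad1 was positive in 726 cells, Gad2 in 769 and Slc32a1 in 135. These counts follow from the selection and are no separate check of it. Slc17a7 and Slc17a6 were at 0 positive cells by the rule, and the microglial genes C1qa and C1qb had 0 counts. Of the oligodendrocyte list, Mbp was positive in 210 neurons, while Mobp, Mog, Mag and Cldn11 were positive in 2 or 3 each. Mbp-positive cells made up 30.9% of Prkcd-positive and 22.3% of Prkcd-negative neurons, and the comparisons were also fitted without such cells. Those fits had fewer cells per class and, in some comparisons, fewer samples. No removal of the same number of other cells was run, so a call lost there cannot be assigned to Mbp. Among markers of striatal projection neurons, Ppp1r1b was positive in 447 neurons, Drd1a in 28, Drd2 in 24 and Adora2a in 2.

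For the tests, counts were summed by sample and class, and edgeR's quasi-likelihood test with the sample as a block was fitted to all genes that passed its filter on low counts. A gene was called at an adjusted p (Benjamini-Hochberg, over all genes tested) under 0.05. Of the 52 members, 32 could be tested in all 8 comparisons and 12 in none. The untested ones were Adcy10, Gucy1b2, Gucy2c, Gucy2e, Gucy2g, Pde3a, Pde4c, Pde5a, Pde6b, Pde6c, Pde6g and Pde6h. Calls were made for 19 members in at least 1 comparison, and 21 were tested but not called in any. Levels are given as the mean counts per 10000 over a sample's cells of a class, with the lowest, median and highest sample. The sources used here do not say whether counts are reads or molecules or how they scale with gene length, so levels of different genes are not compared.

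Promoter sequences are shown for the 4 members that separated Prkcd-positive from Sst-positive neurons with no overlap between samples. The share of all genes without overlap in this comparison was not counted, so the number of such members is not read as a result. Pde7b and Pde8a were high with Prkcd, and Prkar2a and Rapgef3 were high with Sst. Each is the 250 bases before the start of the gene in RefSeq (mouse build GRCm38.p6, which is not the build named for the counts), 5′ to 3′ on the gene's own strand. Pde7b lies on the minus strand at chr10:20548329-20548578, Pde8a on the plus strand at chr7:81213015-81213264, Prkar2a on the plus strand at chr9:108691893-108692142 and Rapgef3 on the minus strand at chr15:97767667-97767916. Capitals mark TGACG, the core of the cAMP response element bound by CREB, searched on both strands.
Pde7b: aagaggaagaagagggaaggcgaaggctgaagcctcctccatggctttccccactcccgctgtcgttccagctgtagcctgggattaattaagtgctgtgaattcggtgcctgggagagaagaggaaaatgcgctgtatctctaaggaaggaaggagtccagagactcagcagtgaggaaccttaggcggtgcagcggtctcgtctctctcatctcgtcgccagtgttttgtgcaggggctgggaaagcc
Pde8a: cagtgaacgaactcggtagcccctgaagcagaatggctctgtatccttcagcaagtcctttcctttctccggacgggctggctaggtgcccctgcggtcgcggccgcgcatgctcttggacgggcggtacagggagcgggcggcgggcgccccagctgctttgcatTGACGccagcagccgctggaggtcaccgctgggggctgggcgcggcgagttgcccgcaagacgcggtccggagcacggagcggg
Prkar2a: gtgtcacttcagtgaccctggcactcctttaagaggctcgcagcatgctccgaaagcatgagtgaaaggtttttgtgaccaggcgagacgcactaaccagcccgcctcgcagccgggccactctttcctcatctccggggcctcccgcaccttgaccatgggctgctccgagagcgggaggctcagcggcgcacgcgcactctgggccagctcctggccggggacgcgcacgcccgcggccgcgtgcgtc
Rapgef3: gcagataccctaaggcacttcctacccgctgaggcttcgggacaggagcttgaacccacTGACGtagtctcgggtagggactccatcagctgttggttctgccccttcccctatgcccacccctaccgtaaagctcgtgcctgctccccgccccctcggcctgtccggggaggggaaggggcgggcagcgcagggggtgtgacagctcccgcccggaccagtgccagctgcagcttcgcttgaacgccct
The core was found once in the Pde8a window and once in the Rapgef3 window, and was not among the letters of the Pde7b and Prkar2a windows. Thus 1 gene of each pair held it. RefSeq promoters were matched for 42 of the 52 members, and the core was in 18 of their 84 promoters (21.4%), against 17.8% of all 32851 promoters. The full palindrome TGACGTCA, which contains the core, was in 1 member promoter (1.19%) and in 1.55% of all.

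Prkcd-positive neurons without Sst (320 cells) and Sst-positive neurons without Prkcd (125 cells) differed in cAMP phosphodiesterases, kinase regulatory subunits and an exchange factor. Pde7b, Pde8a and Adcy5 were higher in the Prkcd class, and Pde1b, Prkar1b, Prkar2a and Rapgef3 were higher in the Sst class. These 3 and 4 called members stand among 36 tested, where 4.38% of all 10398 genes tested were called higher and 4.06% lower. The members' median log2 difference was -0.03 and that of all genes 0.16.

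Pde8a, a cAMP phosphodiesterase of high affinity, was at 0.0814 to 0.46 counts per 10000 in the Prkcd class, median 0.212. In the Sst class it had 0 counts in each of the 9 samples, against 781 counts in the Prkcd class. With 3 counts set as the floor over the Sst class, this makes Pde8a at least 107-fold higher with Prkcd (edgeR adjusted p = 0.00714). Its expression was restricted to few cells even there: 9.06% of the Prkcd class were positive, while 0 of 125 cells in the Sst class allow a share of up to 2.4%, counting error only. Pde7b, another cAMP-specific enzyme, ranged from 0.887 to 1.33 (median 1.06) in the Prkcd class and from 0 to 0.55 (median 0.237) in the Sst class. The lowest Prkcd sample lay above the highest Sst sample, and the difference was 2.40 ± 0.44 on the log2 scale (SE, 9 samples, edgeR adjusted p = 0.00259). Pde1b, activated by calcium and calmodulin, went the other way, at 0.397 to 0.94 (median 0.665) with Prkcd and 0.777 to 2.74 (median 1.67) with Sst. It was lower with Prkcd in 9 of 9 samples, although the ranges overlapped (log2 fold change -1.26 ± 0.19 SE, edgeR adjusted p = 0.000455).

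Rapgef3 encodes Epac1. It was at 0 to 0.0189 (median 0.00382) in the Prkcd class and at 0.0965 to 0.571 (median 0.264) in the Sst class. The groups did not overlap, and the fitted difference was -5.73 ± 1.01 (SE, edgeR adjusted p = 0.00194) on 28 counts against 507. Positive cells were 0 of 320, which allows up to 0.938%, against 12.0% of the Sst class. Prkar2a, a regulatory subunit that places the kinase at membranes and organelles through anchor proteins, was at 0.0721 to 0.418 (median 0.291) with Prkcd and 0.545 to 1.13 (median 0.805) with Sst, again without overlap (log2 fold change -1.68 ± 0.32 SE, edgeR adjusted p = 0.00355). Its neuronal relative Prkar1b differed little in size, at a median of 8.63 with Prkcd and 10.9 with Sst (-0.32 ± 0.07 SE, edgeR adjusted p = 0.0119), and was higher with Sst in 8 of 9 samples. Without Mbp-positive cells the Prkar1b difference was no longer called (-0.27, edgeR adjusted p = 0.0765).

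Adcy5, a cyclase inhibited by calcium and prominent in striatal neurons, was higher in the Prkcd class in 8 of 9 samples, with a median of 1.61 (0.915 to 2.02) against 0.991 (0.576 to 1.87). The call was narrow (log2 fold change 0.59 ± 0.17 SE, edgeR adjusted p = 0.0466) and was kept in 2 of 9 fits that left out 1 sample: it was lost without sample 1, 2, 3, 4, 6, 7 or 8, with log2 fold changes from 0.50 to 0.64 and adjusted p from 0.06 to 0.122. It was also lost under 5 other settings (0.52 to 0.67, edgeR adjusted p from 0.0566 to 0.21). The calls for Pde1b, Pde7b, Pde8a, Prkar2a and Rapgef3 were kept in every alternative run. Pde9a (1.19 ± 0.43, edgeR adjusted p = 0.113), Pde4b (-1.60 ± 0.76, 0.256) and Gucy1b3 (-2.40 ± 1.19, 0.279) did not pass in this comparison.

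**Figure D1:**
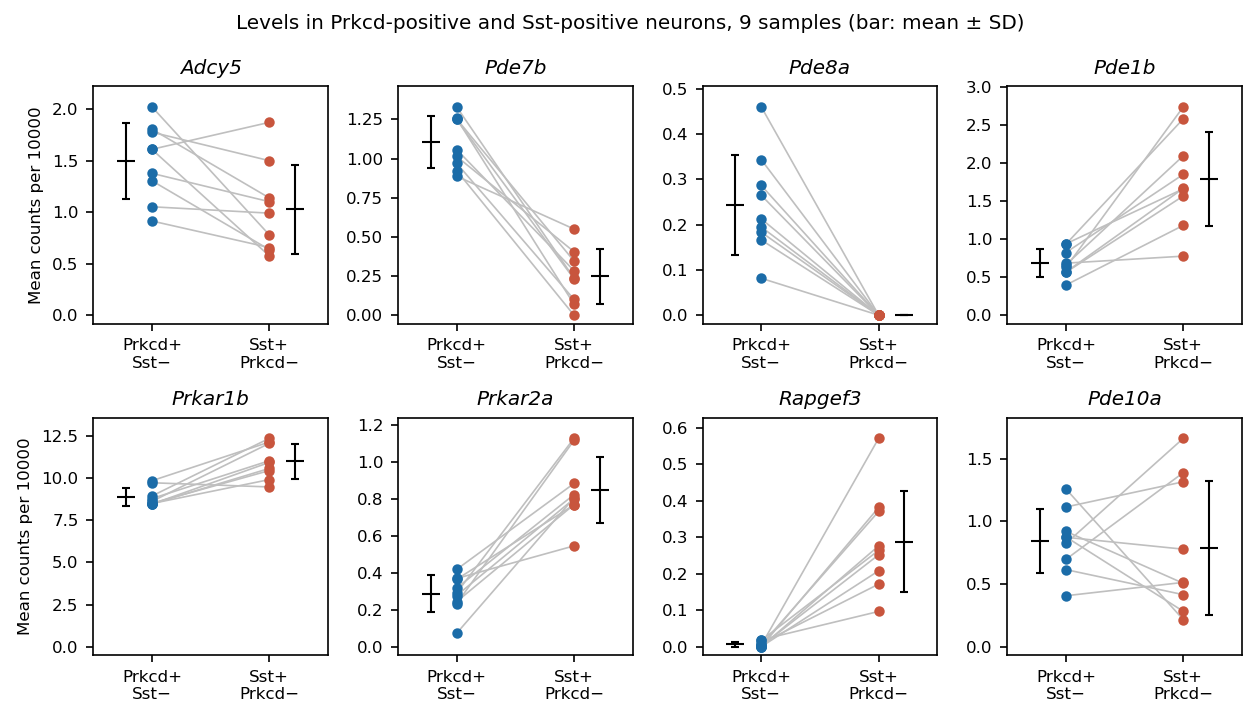
Mean counts per 10000 (vertical axis) of 8 members in Prkcd-positive neurons without Sst (blue) and Sst-positive neurons without Prkcd (red); each point is 1 of 9 samples, lines join the classes of a sample, and black bars give mean ± SD. Pde7b, Pde8a, Prkar2a and Rapgef3 separate the classes in all 9 samples, whereas the Pde10a points, 0.406 to 1.26 with Prkcd and 0.215 to 1.66 with Sst, overlap.

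Over the whole set of inhibitory neurons, more members were called with Prkcd than with any of the other 5 markers, 6 higher and 12 lower of 39 tested in the 343 Prkcd-positive against 467 Prkcd-negative cells. In this comparison 7.6% of all 11487 genes tested were called higher and 9.74% lower, and the members' shares were 15.4% and 30.8%. Called genes as a whole were also most frequent with Prkcd. With the other 5 markers, at most 2.26% of all genes were called higher (Sst) and at most 3.15% lower (Isl1). The median log2 difference was -0.25 over the members and -0.02 over all genes. Adcy5, Pde2a, Pde7b, Pde8a, Pde9a and Prkacb were higher, and Adcy3, Adcy7, Gucy1a3, Gucy1b3, Pde1b, Pde4b, Pde11a, Prkaca, Prkar1b, Prkar2a, Prkar2b and Rapgef3 were lower. In bulk terms each level combines how many cells of a class held a transcript and how much each held, and the shares of positive cells are given beside the levels for that reason.

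Soluble guanylyl cyclase, the receptor for nitric oxide, was low in Prkcd-positive neurons in both of its common subunits. Gucy1a3, the alpha subunit (now Gucy1a1), was at 0 to 0.0828 (median 0.00554) in Prkcd-positive neurons and at 0.0931 to 1.13 (median 0.726) in Prkcd-negative neurons. No Prkcd-positive sample reached the lowest Prkcd-negative one, and the fitted difference was -5.64 ± 0.67 (SE, edgeR adjusted p = 4.78e-05). It was positive in 1 Prkcd-positive cell (0.292%) and in 15.6% of the others. With every cell thinned to 50000 counts, which left out 9 of 343 and 13 of 467 shallower cells, the shares were 0.599% and 17%. The beta subunit Gucy1b3 fell less, from a median of 0.255 (0.163 to 0.546) to 0.0528 (0.0042 to 0.231), with overlap and with 8 of 9 samples lower (-2.50 ± 0.64 SE, edgeR adjusted p = 0.0151). Nos1, which makes nitric oxide in neurons, was lower as well (-2.85 ± 0.67 SE, edgeR adjusted p = 0.00901).

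Among phosphodiesterases, Pde4b, a cAMP-specific enzyme of the rolipram-sensitive family, was at 0.0193 to 0.272 (median 0.0627) in Prkcd-positive neurons against 0.367 to 1.27 (median 0.898) in the rest. There was no overlap (-3.02 ± 0.33 SE, edgeR adjusted p = 2.47e-05), and the shares of positive cells were 4.66% and 27.8%. Pde9a, which hydrolyses cGMP, was at 0.319 to 0.598 (median 0.446) against 0.0832 to 0.267 (median 0.166), so Prkcd-positive neurons were higher in every sample (1.39 ± 0.21 SE, edgeR adjusted p = 0.000448). Pde7b was at 0.887 to 1.19 (median 1.06) against 0.308 to 0.663 (median 0.467) and had the smallest adjusted p of any member here (1.25 ± 0.13 SE, edgeR adjusted p = 1.87e-05). The phosphodiesterases called higher with Prkcd were Pde2a, Pde7b, Pde8a and Pde9a. Pde1b was at a median of 0.711 (0.397 to 0.936) against 1.39 (1.19 to 1.79), without overlap (-0.87 ± 0.12 SE, edgeR adjusted p = 0.000161). Pde8a was positive in 8.75% and 0.642% of cells, and its call was lost without Mbp-positive cells (log2 fold change 4.37, edgeR adjusted p = 0.0513). Pde2a (0.38 ± 0.10) was the smallest called rise among the phosphodiesterases, and its call was lost without sample 3, 4 or 6 (0.31 to 0.35, edgeR adjusted p from 0.0509 to 0.0561) and without Mbp-positive cells (0.40, 0.103). Pde11a, which accepts both nucleotides, was at 0 to 0.0743 (median 0.00244) against 0.00429 to 0.223 (median 0.104) and lower in 9 of 9 samples (-3.82 ± 0.83 SE, edgeR adjusted p = 0.00555), but its call was lost in the fit without the sample block (-2.34, edgeR adjusted p = 0.0995).

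The catalytic subunits of protein kinase A split. Prkaca was lower in Prkcd-positive neurons, at a median of 0.558 (0.37 to 0.715) against 0.786 (0.634 to 1.19), and 9 of 9 samples agreed in sign (-0.64 ± 0.12 SE, edgeR adjusted p = 0.00162). Prkacb was higher, at 7.64 (6.81 to 10.5) against 6.62 (5.65 to 7.82), in 7 of 9 samples (0.25 ± 0.05 SE, edgeR adjusted p = 0.0058), and was lost without Mbp-positive cells (0.20, 0.0773). Of the 4 regulatory subunits, Prkar1b, Prkar2a and Prkar2b were lower by 0.32, 1.02 and 0.86 on the log2 scale, and Prkar1a was not called. Prkar1b was at 8.43 to 10.02 (median 8.98) against 8.56 to 14.1 (median 11.4), lower in 9 of 9 samples. The Prkar2a call was lost when positive meant at least 3 per 10000 (-1.004, edgeR adjusted p = 0.0691), and that of Prkar2b without Mbp-positive cells (-0.94, 0.0754).

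The cyclases differed in direction too. Adcy5 was at 0.847 to 1.94 (median 1.65) with Prkcd and 0.807 to 1.60 (median 1.02) without, and was positive in 51.6% and 37.3% of cells. It was higher in 7 of 9 samples (0.53 ± 0.12 SE, edgeR adjusted p = 0.00773) and was not called without Mbp-positive cells (0.44, 0.104). Adcy3, the cyclase of olfactory neurons and neuronal cilia, was lower in 8 of 9 samples, with medians of 0.288 and 0.454 (-0.94 ± 0.24 SE, edgeR adjusted p = 0.016). Adcy7 was lower on few counts, 51 against 605 (edgeR adjusted p = 0.0177), and was positive in 11 neurons in all. Adcy1 and Adcy2, which respond to calmodulin and to G protein beta-gamma subunits, were lower in 8 of 9 samples without passing (-1.66 ± 0.55 and -1.30 ± 0.43, edgeR adjusted p = 0.0532 and 0.0555). Rapgef3 was lower at the edge of the threshold (-3.04 ± 0.98, edgeR adjusted p = 0.0471). That call was kept in 2 of 9 fits that left out 1 sample, being lost without sample 1, 2, 3, 4, 5, 8 or 9 (-3.40 to -2.66, adjusted p from 0.0584 to 0.11). It was also lost with no filter on low counts (-3.05, 0.0546), with the filter applied to the blocked design (-3.06, 0.0503) and without Mbp-positive cells (-3.97, 0.0571).

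**Figure D2:**
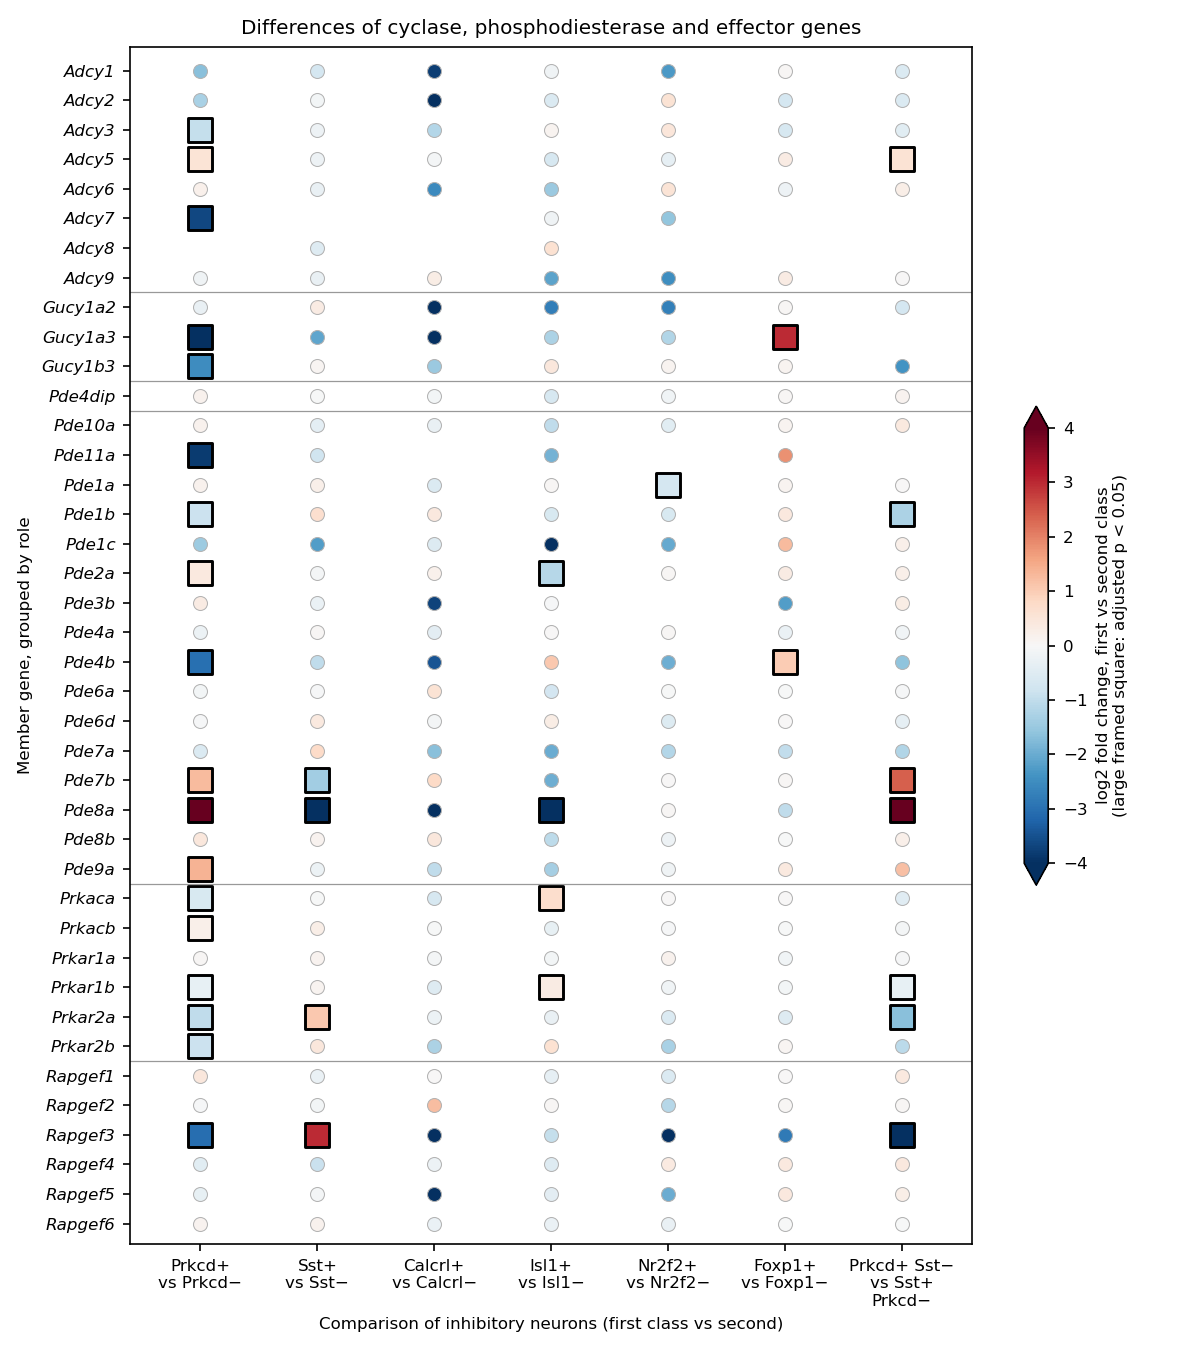
Fitted log2 fold changes (colour, capped at 4 either way) of each member tested, in rows grouped by role, for 7 comparisons of inhibitory neurons in columns; framed squares mark adjusted p under 0.05, circles did not pass, and blanks were not tested. The Prkcd column holds 18 framed squares and the Calcrl column 0.

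Foxp1 is a transcription factor of striatal projection neurons. Gucy1a3 and Pde4b were higher, and no member lower, among 38 tested in 167 Foxp1-positive against 643 Foxp1-negative neurons. Called genes were rare here, 0.176% higher and 0.0529% lower of 11332 tested. At an unadjusted p under 0.05, 4 members were higher and 3 lower, and DESeq2 called 2 higher and 1 lower. Gucy1a3 was at 0.241 to 2.02 (median 1.20) with Foxp1 and 0.00927 to 0.334 (median 0.139) without, higher in 9 of 9 samples (2.98 ± 0.29 SE, edgeR adjusted p = 0.000337). It was positive in 26.3% and 4.67% of cells. Pde4b was at 0.211 to 1.63 (median 1.08) against 0.243 to 0.667 (median 0.464) and higher in 8 of 9 samples (1.004 ± 0.19 SE). Its edgeR adjusted p was 0.0474, and the call was kept in 2 of 9 fits with 1 sample left out. It was lost without sample 1, 3, 4, 5, 6, 7 or 9 (log2 fold changes from 0.94 to 0.9999, adjusted p from 0.112 to 0.149), with no filter (0.96, 0.0589), with no sample block (1.12, 0.106), with at least 10 cells per class (0.96, 0.117) and without Mbp-positive cells (1.02, 0.334). Gucy1b3 did not follow its partner: its medians were 0.234 and 0.201 (0.12 ± 0.43 SE, edgeR adjusted p = 0.958).

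Since few Prkcd-positive neurons held either gene, the Foxp1 split was also read within the 467 Prkcd-negative neurons, a reading chosen after the values were seen and given without a test. There Gucy1a3 was at a median of 1.69 (0.482 to 2.19) in 118 Foxp1-positive and 0.204 (0.0195 to 0.608) in 349 Foxp1-negative neurons, higher in 9 of 9 samples, and was positive in 37.3% against 8.31% of cells. Pde4b was positive in 41.5% against 23.2%, and Gucy1b3 in 6.78% against 8.88%. The summed level of the striatal markers was 5.71 to 11.2 (median 7.57) in Foxp1-positive and 4.28 to 6.89 (median 5.12) in Foxp1-negative neurons, and its part in these differences was not tested.

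**Figure D3:**
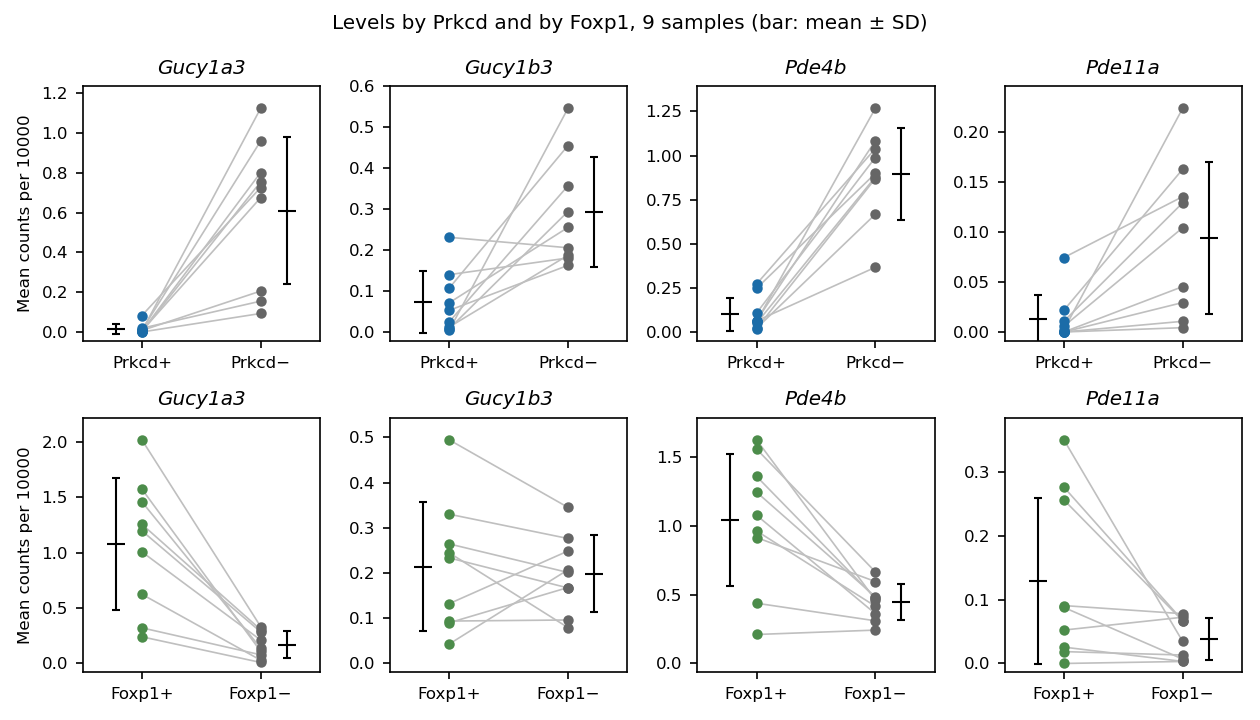
Mean counts per 10000 of Gucy1a3, Gucy1b3, Pde4b and Pde11a in Prkcd-positive and Prkcd-negative neurons (top row) and in Foxp1-positive and Foxp1-negative neurons (bottom row); each point is 1 of 9 samples, lines join the classes of a sample, and black bars give mean ± SD. Gucy1a3 is at most 0.0828 in Prkcd-positive neurons and at least 0.241 in Foxp1-positive ones, while Gucy1b3 overlaps between the Foxp1 classes.

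Sst split 4 members of 39 tested when the 148 positive neurons were set against the 662 others, 2 higher and 2 lower, with 2.26% of 11355 genes called in each direction. Rapgef3 rose from a median of 0.0208 (0.00757 to 0.0766) to 0.276 (0.11 to 0.529), with no overlap (2.97 ± 0.50 SE, edgeR adjusted p = 0.00388). Prkar2a rose from 0.39 (0.201 to 0.5) to 0.697 (0.545 to 1.12), also without overlap (1.07 ± 0.24 SE, edgeR adjusted p = 0.0221). Pde7b and Pde8a were lower (-1.40 ± 0.32 and -5.37 ± 1.17 SE, edgeR adjusted p = 0.0254 and 0.0173), Pde8a on 19 counts against 894. Rapgef3 had a count in 29.7% of Sst-positive and 6.5% of Sst-negative cells, and in 26.6% and 4.5% with cells thinned to 50000 counts. Without Mbp-positive cells, Rapgef3 (2.56, edgeR adjusted p = 0.0658) and Pde7b (-0.99, 0.198) were not called. Pde7b was lost without sample 1, 2 or 3 (-1.39 to -1.24, adjusted p from 0.0586 to 0.0709), Prkar2a without sample 2 (1.03, 0.057) or 3 (1.06, 0.0503), and Pde8a with no sample block (-3.05, 0.0859).

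Isl1-positive neurons (76) differed from the 734 others in 4 of 40 members, with Prkaca and Prkar1b higher and Pde2a and Pde8a lower. Of 11169 genes tested, 1.7% were called higher and 3.15% lower. Prkaca was at 0.61 to 1.90 (median 1.14) against 0.479 to 0.855 (median 0.642), higher in 9 of 9 samples (0.72 ± 0.17 SE, edgeR adjusted p = 0.0259), and Prkar1b at 12.9 against 10.2 (0.31 ± 0.07 SE, 0.0142). Both catalytic and regulatory subunits of the kinase were thus among the called genes. Pde2a, which cGMP stimulates, was at 0.279 to 1.395 (median 0.711) against 1.27 to 2.07 (median 1.58) and lower in 8 of 9 samples (-1.15 ± 0.24 SE, edgeR adjusted p = 0.0144). Pde8a was at 0 in 7 of 9 Isl1-positive samples but at 0.302 in sample 3, and its fold depended on the model (-5.24 with the sample block, -0.96 without it, edgeR adjusted p = 0.0272 and 0.756). Isl1-positive cells were deeper, with a median of 169577 counts against 123695, whose part was not tested. They also held few Prkcd-positive cells, 12 of 76, while 343 of all 810 inhibitory neurons were Prkcd-positive. With Prkcd, the same 4 members were called in the opposite directions. The Isl1 split was not read within Prkcd-negative neurons, and the part of Prkcd in these differences was not tested. When positive meant at least 3 per 10000, or when at least 10 cells were required per class, 2 of 9 samples entered the fit, so the missing calls there say nothing about stability. The fitted log2 differences were -1.09 and -1.41 for Pde2a, 0.43 and 0.34 for Prkar1b and 0.65 and 0.40 for Prkaca. The Prkaca call was lost at a nearly equal difference without sample 2, 4, 5, 6 or 9 (0.65 to 0.73, edgeR adjusted p 0.0513 to 0.0691), with no filter (0.68, 0.0743) and without Mbp-positive cells (0.72, 0.0624). That of Pde8a was lost without sample 1, 2, 4, 5, 6, 7 or 8 (-5.09 to -4.91, 0.0582 to 0.0631) and without Mbp-positive cells (-4.65, 0.0587), and that of Prkar1b without Mbp-positive cells (0.28, 0.0743).

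Nr2f2 (COUP-TFII) was accompanied by 1 called member of 37, Pde1a, the calcium-activated phosphodiesterase that 76.7% of all inhibitory neurons were positive for. It was at 1.79 to 3.42 (median 3.11) in 116 Nr2f2-positive and 3.80 to 5.30 (median 4.35) in 694 Nr2f2-negative neurons. The groups did not overlap (-0.69 ± 0.10 SE, edgeR adjusted p = 0.00343). Background calls were 0.409% higher and 1.28% lower of 11008 genes. No member was called higher by edgeR, with 1 at an unadjusted p under 0.05 and 1 by DESeq2, which called 8 lower.

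Calcrl-positive neurons were few, and no member was called. Only 6 samples held at least 3 such cells (26 cells against 515). Of 37 members, 1 higher and 10 lower had an unadjusted p under 0.05, and DESeq2 called 1 higher and 5 lower. The smallest edgeR adjusted p was 0.0621, and 0.262% of 10699 genes were called in either direction. Rapgef2, an exchange factor for Rap that cAMP signalling engages in neurons, had 0.751 to 1.85 (median 1.495) against 0.494 to 0.705 (median 0.587), without overlap (1.23 ± 0.42 SE, edgeR adjusted p = 0.143). Gucy1a2, Pde8a and Rapgef3 were at 0 in each of the 6 samples. With 0 of 30 Calcrl-positive cells positive for Pde8a or Rapgef3, a share of up to 10% is allowed, and a fold at this depth is not given. Within Prkcd-positive neurons (17 Calcrl-positive against 187 others in 5 samples) no member of 32 was called by edgeR or DESeq2, 3 had an unadjusted p under 0.05, and 0.0109% of 9141 genes were called. On simulated counts of the same size, 18% of genes changed 4-fold were recovered in the Calcrl comparison. In that of Prkcd with Sst the share was 52%. The simulated samples shared the same gene profile apart from the changed genes, so recovery in the data may differ.

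The cells that were positive for a member show the same divisions from the other side. Of the 33 Pde8a-positive neurons, 30 (90.9%) were Prkcd-positive, against 42.3% of all inhibitory neurons, and 1 was Sst-positive. Of the 21 Rapgef3-positive neurons, 16 (76.2%) were Sst-positive, against 18.3% of all. Of the 74 Gucy1a3-positive neurons, 44 (59.5%) were Foxp1-positive, against 20.6% of all, and 1 was Prkcd-positive. Pde11a-positive neurons were few (21), with 11 Foxp1-positive and 2 Prkcd-positive. Pde4b-positive neurons were more mixed: 34.9% of 146 carried Foxp1 and 29.5% carried none of the 6 markers. These shares restate the class levels above and have no test.

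**Figure D4:**
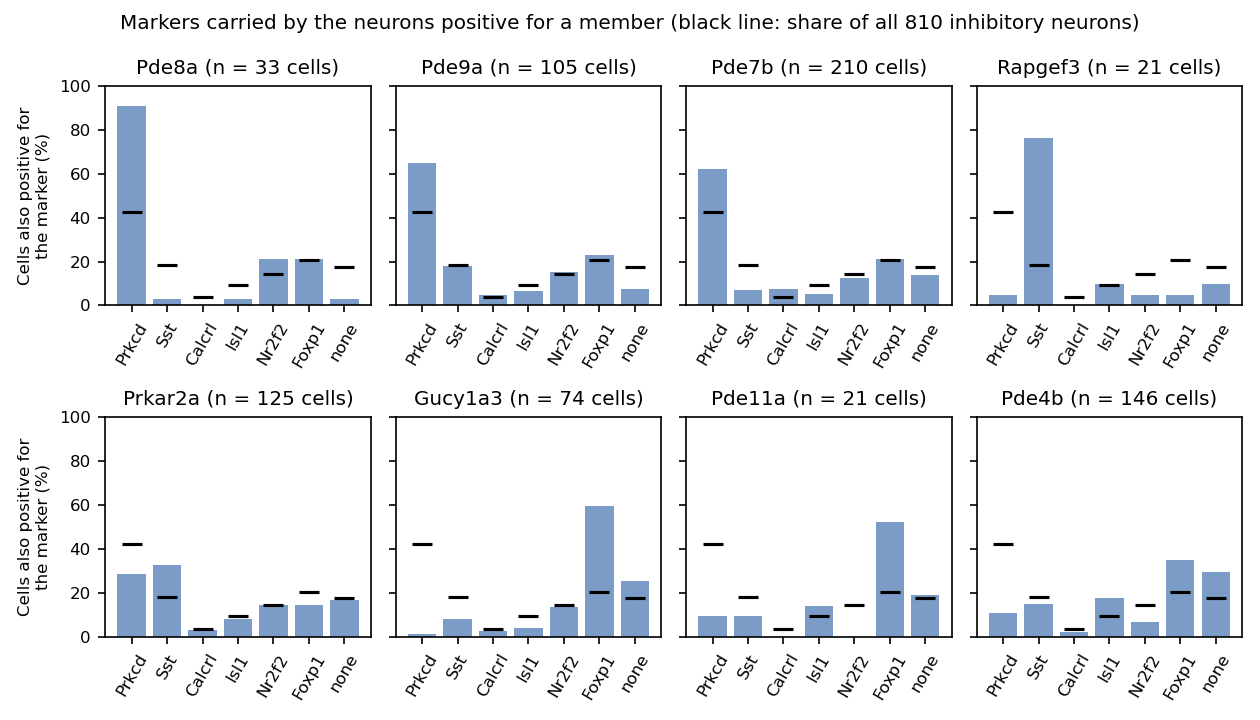
Share (percent) of the neurons positive for each of 8 members that were also positive for each of the 6 markers or for none of them; blue bars are the member's positive cells and black lines the share among all 810 inhibitory neurons. The Prkcd bar of Pde8a reaches 90.9%, the Sst bar of Rapgef3 76.2% and the Foxp1 bar of Gucy1a3 59.5%.

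Soluble guanylyl cyclase works as a dimer of an alpha and a beta subunit, so the subunits were read in the same cells. Of 74 Gucy1a3-positive neurons, 8 (10.8%) were positive for Gucy1b3, against 5.3% of the other neurons. The share was higher in 4 of 9 samples. Gucy1a2, the second alpha subunit, was positive in 25 neurons, of which 1 was positive for Gucy1b3. For Pde4b, 34 of the Gucy1a3-positive neurons (45.9%) were positive, against 15.2% of the others, and the share was higher in 8 of 9 samples. Only 1 of the 74 Gucy1a3-positive and 16 of the 146 Pde4b-positive neurons were Prkcd-positive. The others thus include nearly all Prkcd-positive neurons, and the pair was not read within Prkcd-negative neurons alone. Detection is incomplete, since Gucy1b3 had a count in 246 neurons but reached 1 per 10000 in 47, and these are descriptions without a test.

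Prkcd was also read within the 662 Sst-negative neurons, again without a test, where Pde7b was at a median of 1.06 (0.887 to 1.33) with Prkcd and 0.557 (0.317 to 0.934) without, and higher in 9 of 9 samples. Pde8a and Pde9a were higher in 9 of 9 samples, Gucy1a3 and Pde4b lower in 9 of 9, and Pde1b lower in 8 of 9. Rapgef3 and Prkar2a were higher in 9 of 9 samples with Sst within the 467 Prkcd-negative neurons, at medians of 0.264 against 0.0405 and 0.805 against 0.434.

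Pde10a and Rapgef4 were set to be described whatever their result. Pde10a, the dual phosphodiesterase of striatal projection neurons, was at 0.57 to 1.13 (median 0.845) over the 9 samples and positive in 26.9% of neurons. It was not called in any comparison. The difference nearest to the threshold was with Isl1, at a median of 0.533 (0.0624 to 1.39) against 0.854 (0.605 to 1.103), lower in 7 of 9 samples (-1.03 ± 0.35 SE, edgeR adjusted p = 0.116). Rapgef4, Epac2, was at 0.447 to 0.776 (median 0.651) and positive in 23.6% of neurons. It was not called either, and in Sst-positive neurons it was at a median of 0.305 against 0.668, opposite in sign to Rapgef3 (-0.88 ± 0.27 SE, edgeR adjusted p = 0.0974). Adcy5 was not called with Sst, Isl1, Nr2f2 or Foxp1 (log2 fold changes from -0.67 to 0.34).

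Several members known from other tissues were barely present. The receptor guanylyl cyclases Gucy2c, Gucy2e and Gucy2g had 105 to 172 counts in all. The photoreceptor enzymes Pde6b, Pde6c, Pde6g and Pde6h had 6 to 91 counts. Pde5a, the sildenafil-sensitive cGMP enzyme, had 2. Pde6a, the catalytic subunit of rod photoreceptors, stood apart: it had a count in 508 neurons, with a median of 2 counts in them, but was positive in 21. Pde6d, whose product shuttles prenylated proteins rather than hydrolysing a nucleotide, was positive in 39% of neurons and was not called. Rapgef1, Rapgef5 and Rapgef6, exchange factors that cAMP does not open directly, were not called in any comparison.

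Genes that act around the members were read from 7 lists. Among 7 G protein genes, Gnas, the stimulatory alpha subunit, was lower with Prkcd, at 4.997 to 9.94 (median 7.94) against 18.1 to 29.6 (median 23.6), with no overlap (-1.60 ± 0.09 SE, edgeR adjusted p = 7.21e-08). It was higher with Sst (1.37 ± 0.07) and Isl1 (0.99 ± 0.15) and lower with Calcrl (-1.62 ± 0.17), Nr2f2 (-0.997 ± 0.17) and Foxp1 (-0.63 ± 0.12). Gnas shares its locus with other transcripts, and the sources used here do not say whether counting used strand. Gnai1, an inhibitory alpha subunit, was lower with Prkcd (-0.52) and Nr2f2 (-0.82) and higher with Sst (0.67). Gnal, which couples dopamine receptors to Adcy5 in the striatum, was lower with Nr2f2 (-1.38 ± 0.30 SE, edgeR adjusted p = 0.0359).

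Of 11 kinase anchors tested, Akap9 was higher and Akap5, Akap6 and Akap12 lower in Prkcd-positive neurons, where 7.6% of all genes tested were called higher and 9.74% lower. Akap9, an anchor at the centrosome, Golgi and some channels, was at 12.2 to 21.8 (median 14.8) against 5.36 to 8.68 (median 7.16), a difference of 1.07 ± 0.06 (SE, edgeR adjusted p = 8.06e-08). Akap12 was at a median of 0.00118 with Prkcd and 0.192 without (-5.24 ± 0.90 SE, edgeR adjusted p = 0.00106). With Sst the signs turned, Akap5 and Akap12 being higher and Akap9 lower (1.04, 3.23 and -0.72). With Nr2f2, Akap5 and Akap12 were lower (-2.01 and -5.46), and with Isl1, Akap9 was lower (-0.68).

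Among 13 kinase inhibitors and targets, 2 were higher and 4 lower with Prkcd, beside the same 7.6% and 9.74% of all genes. Pkig, a peptide inhibitor of the kinase, was higher (0.84 ± 0.07 SE, edgeR adjusted p = 3.78e-06), while the related inhibitor Pkia was lower (-0.88 ± 0.13 SE, 0.000437). Arpp19, a substrate of the kinase, was lower (-0.63 ± 0.06 SE, edgeR adjusted p = 1.31e-05). With Foxp1, Arpp19 was the only called gene of this list and was higher (0.84 ± 0.14 SE, edgeR adjusted p = 0.029). Ppp1r1b, which encodes DARPP-32, and Arpp21 were higher with Sst (0.65 and 1.11) and Calcrl (1.17 and 1.17), and lower with Isl1 (-1.42 and -0.85) and Nr2f2 (-1.83 and -2.06). With Prkcd they went in opposite directions, Ppp1r1b being higher (0.65, edgeR adjusted p = 0.00343) and Arpp21 lower (-0.65, 0.0156). In the Prkcd class against the Sst class Arpp21 was lower (-1.47) and Ppp1r1b was not called (-0.18, edgeR adjusted p = 0.432). In Calcrl-positive neurons these were among the few called genes of the pathway, with Arpp21 at 5.16 to 15.4 (median 8.91) against 3.50 to 4.68 (median 4.33).

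Of the 8 Rap genes, Rap1gap, which switches Rap1 off, was higher with Prkcd, at 8.61 to 13.1 (median 10.96) against 2.36 to 4.87 (median 2.84), and no sample overlapped (1.95 ± 0.08 SE, edgeR adjusted p = 2.71e-09). Rap1gap2 and Rapgefl1 were lower (-2.26 and -1.96). With Isl1, Rap1gap was lower (-1.30 ± 0.18 SE, edgeR adjusted p = 0.00105). Calm2, 1 of 3 calmodulin genes, was lower with Prkcd (-0.41 ± 0.03 SE, edgeR adjusted p = 2.59e-06). None of the cyclic nucleotide gated channel and Popeye genes that could be tested (3 of 13 listed in the Prkcd comparison) was called in any comparison.

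In 5 of 40 members with a count in every sample (Adcy3, Gucy1a3, Pde1a, Pde8a and Prkar1a) the levels in samples of 1 date field did not overlap those in the other 6. That is 12.5% of the members against 10.1% of 12624 genes, a share near the background. Gucy1a3 is given as an example chosen after its values were seen. Over all inhibitory neurons it was at 0.0445 to 0.124 in the 3 samples of 121718, at 0.462 to 0.795 in those of 121818 and at 0.387 to 0.508 in those of 121918. The samples of 121718 were the 3 lowest. Within each date field Gucy1a3 was still higher with Foxp1, at a mean of 0.396 against 0.0392 in 121718, 1.58 against 0.259 in 121818 and 1.26 against 0.202 in 121918. All 36 called differences of members kept their direction in the mean of each of the 3 date fields, and 35 in that of each animal number. The exception was Pde8a with Isl1, at 0.108 against 0.0976 in animal number 3. The calls came from these same samples, so the agreement describes them and is not separate support.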

How the data were processed

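Single-cell RNA-seq counts of 829 cells from 9 samples were used as deposited by the authors: whole counts per gene and cell, with 91 ERCC spike-in rows, which were dropped. Per the submitters' processing notes, the build is NCBIM37 and Seurat was used. Aligner, annotation, strandedness and molecular identifiers: not given in the sources used here. Cells were mapped to samples by the deposited cell table. No doublet caller was run, and no cell was removed for depth in the main analysis.

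Counts were summed per sample and class, keeping samples with at least 5 cells in each class (3 for Calcrl), and tested with edgeR 4.0.16 in R 4.3.3 (TMM, quasi-likelihood, sample block, Benjamini-Hochberg over all genes). The filter on low counts, filterByExpr, was first run on the blocked design and then set to the class groups after both results had been seen. Simulated counts had 200 changed genes per comparison and otherwise the same gene profile in all samples, so recovery in the data may differ. For Prkcd against Sst, 22% of 2-fold and 52% of 4-fold changes were recovered (10026 genes, 0 false calls). Recovery was 26% and 54% for Isl1 (10822 genes, 1 false call) and 2% and 18% for Calcrl (10259 genes, 0 false calls).

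The members and the pathway lists were chosen with earlier results of these data known. Named were the called members, at most 6 in full per comparison and side, plus Adcy5, Pde10a, Pde1b, Rapgef3, Rapgef4 and Gucy1a3, and at most 3 called genes per pathway list. Other genes named, and the values of Gucy1b3 and Adcy3 with Prkcd, were chosen after their values were seen. Alternatives were DESeq2 1.42.0, other scaling and filters, no block, stricter classes, left-out cells and left-out samples. Intervals and floors cover counting error only.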

Additional observations from a re-analysis of the deposited data

Results flagged for a closer look

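For each of the 40 members with a count in every sample, the highest and lowest of the 9 samples were compared with their nearest neighbour, and 6 members had a sample that stood apart by Dixon's criterion. Chance flags about 1 in 20 groups. All values are mean counts per 10000 over a sample's inhibitory neurons, and the causes were not tested.

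Pde6a was at 2.01 in sample 2, against 0.467 in the next sample, and 1 cell of 417 counts, 7 of them from Pde6a, held most of it, since the sample was at 0.19 without that cell. Pde3b was at 0.367 in sample 1, against 0.0754 in the next, and at 0.0622 without 1 cell of 4823 counts. Adcy8 was at 0.0747 in sample 3, and at 0.0407 without its highest cell, while the next sample was at 0.033. Gucy1a2 was at 0.161 in sample 8, against 0.0979 in the next sample. Adcy9 was at 0.389 in sample 1, against 0.286. Prkar1a was lowest in sample 9, at 4.98, against 6.08 in the next.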

How the results depend on the processing

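The sign of each of the 36 called differences of members was kept in every fit that gave it an adjusted p. The calls were kept in 279 of 320 values with 1 sample left out and in 285 of 321 values under the other settings. Of the 36 differences, 17 were called in every fit that gave them an adjusted p. Among these 17, Adcy7 with Prkcd had a value in 7 of 9 fits with 1 sample left out and in 7 of 9 other settings. Limits are the number of cells per class, the incomplete detection of low genes and the unknown independence of the samples. Of the 36 calls lost under the other settings, 8 came from Isl1 fits that only 2 samples entered. The cause of each other change below was not tested.

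Numbers of called members, higher and lower, were as follows. For Prkcd against its negatives, 2 were higher without Mbp-positive cells (6 in the main fit). For Sst, DESeq2 gave 4 higher and 6 lower, the fit with no sample block 1 lower, and leaving out Mbp-positive cells 1 higher and 1 lower (2 and 2). For Calcrl, DESeq2 gave 1 and 5, and no sample block 1 and 3 (0 and 0). For Isl1, DESeq2 gave 8 lower, no filter 1 higher, no sample block 1 lower, a threshold of 3 per 10000 gave 0 and 0, at least 10 cells per class 0 and 0, and no Mbp-positive cells 0 and 1 (2 and 2). For Isl1 the threshold of 3 and the minimum of 10 cells left 2 of 9 samples, so these counts of 0 say nothing about stability. For Nr2f2, DESeq2 gave 1 and 8, and no filter, at least 10 cells per class, and the filter by the blocked design, which was chosen after seeing the data, gave 2 lower each (0 and 1). For Foxp1, DESeq2 and a threshold of 3 per 10000 gave 1 lower each, while no filter, no sample block, at least 10 cells per class and no Mbp-positive cells gave 1 higher each (2 and 0). For Prkcd against Sst, DESeq2 gave 8 lower (4). For Calcrl within Prkcd, no sample block gave 1 lower (0).

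With 1 sample left out, the counts ranged from 5 to 7 higher and 9 to 13 lower for Prkcd, 1 to 3 and 1 to 3 for Sst, 1 to 2 and 1 to 3 for Isl1, 0 to 0 and 1 to 2 for Nr2f2, 1 to 2 and 0 to 0 for Foxp1, and 2 to 3 and 4 to 5 for Prkcd against Sst. Both Calcrl comparisons stayed at 0 in each. Calcrl at 3 per 10000, and Calcrl within Prkcd at 3 per 10000 or at least 5 cells, left too few samples and were not run.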
